A study of Homo sapiens with 6 samples.

Results

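PLK1, FOXM1, TOP2A and NUSAP1 are 4 genes that drive or carry out cell division. They are 4 of 14884 genes measured, and were selected on their array values, which were lower in Hs578T cells given small interfering RNA against CSRP2 than in cells given a non-targeting RNA. Each was given by 1 probe set, the only one named for it, among 53617 probe sets on the array: 16817017 for PLK1, 16760048 for FOXM1, 16844312 for TOP2A and 16799793 for NUSAP1. Since the choice rests on this contrast, the differences of these genes between the groups are described and not tested.

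Hs578T is a human breast cancer cell line with a mesenchymal look. The siCSRP2 group (3 arrays) had been transfected with RNA against CSRP2, a LIM domain protein of the actin cytoskeleton, and the siControl group (3 arrays) with non-targeting RNA, both by lipofection. The medium was DMEM supplemented with 10% fetal serum and, per ml, 0.01 mg of insulin. Wells of 150000 cells were used, 100000 cells per well were moved 24 h after transfection, and RNA was extracted 48 h after the move, so all arrays sample transfected, replated cells at a single time. How many siRNA sequences were used is not given in the sources used here. Nor do they tell if replicates were grown separately, and the p-values below therefore cover the spread between arrays alone, possibly a technical one.

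Entry into mitosis is driven by the cyclin-dependent kinase CDK1 with its cyclins, and the transcription factor FOXM1, acting with B-MYB and the MuvB complex, switches on many of the genes needed for it in G2. PLK1, a Polo-like kinase, is the product of such a gene and in turn phosphorylates FOXM1, centrosome, kinetochore and cytokinesis proteins. TOP2A, a type II topoisomerase, untangles sister chromatids, and NUSAP1 binds and bundles microtubules around chromosomes in the spindle. Transcripts of this kind are abundant in dividing cells and scarce in resting ones, so in bulk RNA fewer cells in G2 and M and less RNA per such cell cannot be told apart.

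Many promoters of this class hold a CHR (cell cycle genes homology region), which the MuvB complex binds, together with CCAAT boxes, bound by the factor NF-Y. The RefSeq promoter table (GRCh38.p14) matched 3 of the 4 genes, and their promoters are shown because each of the 3 holds these letters. The 4 genes were selected for their lower values, so their common fall is no ground for a shared element. Each line runs from 250 bases before to 30 bases after the start of the gene, 5′ to 3′ on the gene's strand, with TTTGAA or its reverse complement TTCAAA (the CHR core) and CCAAT or ATTGG (the CCAAT box) in capitals. The windows are chr16:23678639-23678918 on the plus strand (PLK1), chr17:40417867-40418146 on the minus strand (TOP2A) and chr15:41332631-41332910 on the plus strand (NUSAP1).
PLK1: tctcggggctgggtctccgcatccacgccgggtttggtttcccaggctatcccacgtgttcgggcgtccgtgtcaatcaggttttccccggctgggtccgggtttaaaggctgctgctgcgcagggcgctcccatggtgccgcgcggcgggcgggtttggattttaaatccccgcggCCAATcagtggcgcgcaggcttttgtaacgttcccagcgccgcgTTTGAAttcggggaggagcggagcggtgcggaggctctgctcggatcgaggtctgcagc
TOP2A: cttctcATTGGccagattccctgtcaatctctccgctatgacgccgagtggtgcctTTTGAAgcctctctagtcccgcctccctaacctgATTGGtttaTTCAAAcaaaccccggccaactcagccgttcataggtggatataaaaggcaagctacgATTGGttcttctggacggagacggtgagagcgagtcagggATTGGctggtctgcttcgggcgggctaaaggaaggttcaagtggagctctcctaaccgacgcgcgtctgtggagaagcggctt
NUSAP1: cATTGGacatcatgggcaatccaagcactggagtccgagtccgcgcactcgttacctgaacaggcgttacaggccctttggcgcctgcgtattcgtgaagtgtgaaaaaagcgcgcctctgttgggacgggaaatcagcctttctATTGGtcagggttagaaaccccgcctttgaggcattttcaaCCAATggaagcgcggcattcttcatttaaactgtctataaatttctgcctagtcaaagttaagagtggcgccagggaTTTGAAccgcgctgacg

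All 3 promoters held the CHR core. In PLK1 it lay at -29 to -24 from the start, downstream of 1 CCAAT box at -73 to -69. TOP2A held 2 copies, at -194 to -189 and at -151 to -146, among 4 CCAAT boxes that all read as ATTGG on the gene's strand. In NUSAP1 the single copy lay just after the start, at 14 to 19, behind 3 CCAAT boxes.

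Searched on both strands over windows of 300 bases, which reach 50 bases past the start, the CHR core occurred in 15.4% of 27305 promoters, and at least 2 CCAAT boxes in 11.3%. Both together, as in TOP2A and NUSAP1, occurred in 1.83%. The forkhead core TAAACA, present in 12.4% of all windows, was not in these 3 windows. No CHR core overlapped a CCAAT box in the 3 promoters. A match of letters is a description of the window and not a measured binding site.

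**Figure D1:**
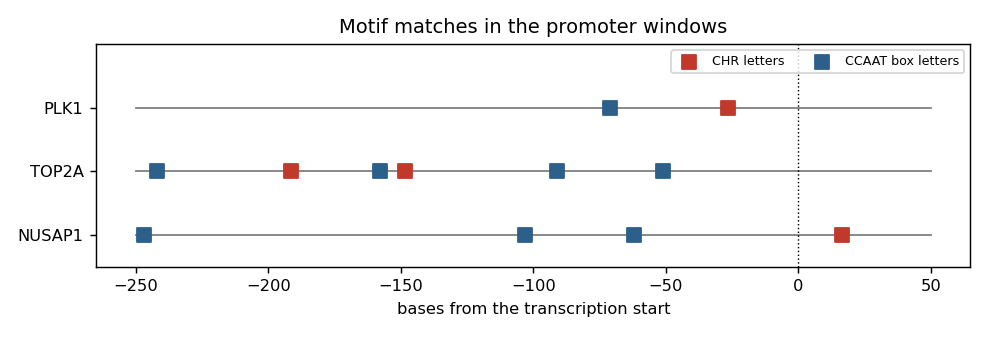
Positions of CHR core letters (red) and CCAAT box letters (blue), on either strand, in the promoter windows of PLK1, TOP2A and NUSAP1, against the distance in bases from the transcription start (dotted line). Each promoter holds at least 1 of each, the PLK1 and TOP2A CHR letters before the start and those of NUSAP1 just after it.

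Before the 4 genes, the target and the arrays were examined. In siCSRP2 the log2 values of CSRP2 were 3.25, 3.76 and 4.26, against 3.69, 4.01 and 4.35 in siControl. The groups overlapped and the difference of -0.26 (SE 0.26) did not pass the test (limma, Benjamini-Hochberg adjusted p = 0.583), so the target does not check the labels, and siCSRP2 means the arrays labelled siCSRP2. Array medians over all probe sets were 2.80 to 2.82 on siCSRP2 and 2.70 to 2.76 on siControl arrays, and the median difference over all genes was 0.02. Of the mesenchymal markers, 6 of 8 had a named probe set and had summed log2 values of 42.09 to 44.34 on siCSRP2 and 47.31 to 49.13 on siControl arrays, with vimentin, VIM, at 6.98 to 7.45 in siCSRP2 and 7.97 to 8.17 in siControl. Of these 6, 4 fell (66.7%) and none rose, beside 6.54% of all genes that fell (limma, adjusted p under 0.05). AXL, VIM, SNAI2 and FN1 fell, CD44 and ZEB1 did not pass, and the median log2 difference was -0.71. With 1 array left out, 0 to 4 of them fell. Of the epithelial and luminal markers, 7 of 8 were named and summed to 19.45 to 20.99 in siCSRP2 and 19.03 to 19.79 in siControl. ESR1, the oestrogen receptor, lay near the array medians, at 2.55 to 2.94 in siCSRP2 and 2.49 to 2.64 in siControl. KRT19, PGR, CLDN4 and ESRP1 lay at 2.28 to 2.77 over the 6 arrays. Above the array medians lay GATA3, at 3.40 to 4.22 in siCSRP2 and 3.37 to 3.84 in siControl. So did EPCAM, at 3.08 to 3.60 in siCSRP2 and 2.91 to 3.63 in siControl. Of 8 markers of blood, endothelial and liver cells 4 were named, and they summed to 15.73 to 16.67 in siCSRP2 and 15.26 to 16.28 in siControl, with CD68 at 7.94 to 8.48 in siCSRP2 and 7.39 to 7.95 in siControl and the other 3 below 3.1. No background value marks an absent gene on these arrays, and the part of these markers in the results was not tested.

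PLK1, the kinase, measured 4.57, 5.28 and 4.52 in siCSRP2 replicates 1, 2 and 3, against 6.29, 6.36 and 5.55 in the siControl replicates of the same numbers. Every siCSRP2 array lay below every siControl array, with siCSRP2 2 the highest of its group and siControl 3 the lowest of its own, 0.27 apart. The group means were 4.79 ± 0.42 in siCSRP2 and 6.07 ± 0.45 in siControl (SD, n = 3 each), a log2 difference of -1.27, or 2.42-fold lower. Within pairs of equal replicate number the differences were -1.72, -1.08 and -1.03.

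FOXM1, the transcription factor, measured 2.70, 3.21 and 2.94 in siCSRP2 and 4.28, 4.55 and 3.70 in siControl. The groups again did not overlap, and the arrays stood in the same extreme places, siCSRP2 2 highest among siCSRP2 and siControl 3 lowest among siControl, 0.49 apart. Its means were 2.95 ± 0.26 in siCSRP2 and 4.18 ± 0.43 in siControl (SD, n = 3 each), a difference of -1.23, or 2.34-fold lower. The siCSRP2 values of FOXM1 lay close to the medians of all probe sets on the same arrays, and on siCSRP2 1 below it, so the fold of this dim probe set may understate the change. The paired differences of FOXM1 spread more than those of PLK1, at -1.58, -1.34 and -0.76.

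TOP2A, the topoisomerase, measured 4.91, 5.49 and 5.08 in siCSRP2 and 6.87, 6.75 and 5.92 in siControl. It had the largest difference of the 4, with means of 5.16 ± 0.30 in siCSRP2 and 6.51 ± 0.52 in siControl (SD, n = 3 each), -1.36 on the log2 scale or 2.56-fold lower. The groups were 0.43 apart, again between siCSRP2 2 and siControl 3, and the paired differences of -1.96, -1.26 and -0.84 were the most uneven of the 4 genes.

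NUSAP1, the spindle protein, measured 4.18, 4.42 and 4.26 in siCSRP2 and 5.46, 5.35 and 5.32 in siControl. Both groups were tight, with means of 4.29 ± 0.12 in siCSRP2 and 5.38 ± 0.07 in siControl (SD, n = 3 each), and the gap between them was 0.91. Its difference of -1.09, or 2.13-fold lower, was the smallest of the 4, and its paired differences of -1.28, -0.93 and -1.06 were the most even.

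**Figure D2:**
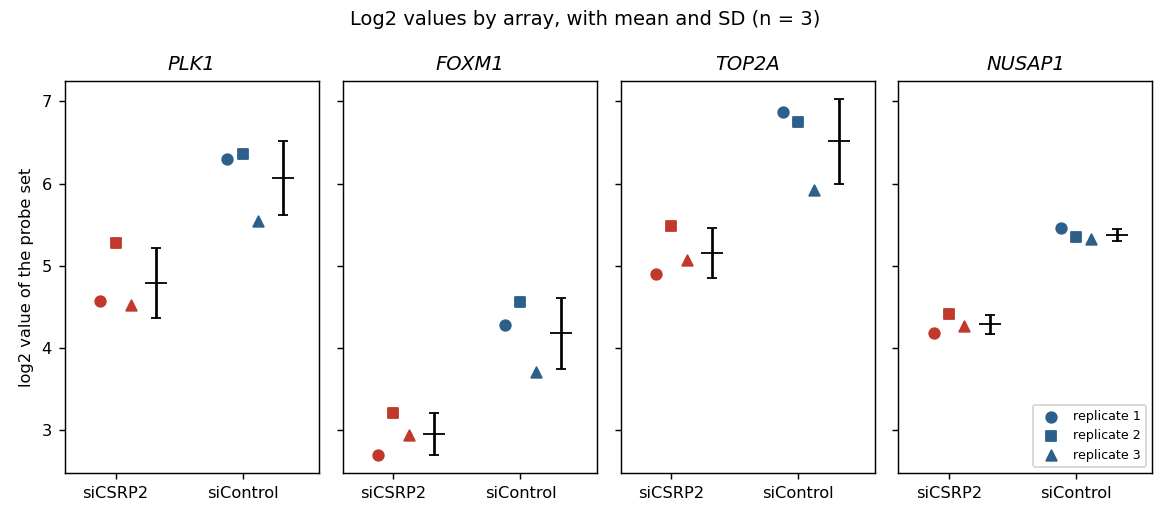
Log2 values of the probe sets of PLK1, FOXM1, TOP2A and NUSAP1 on each siCSRP2 (red) and siControl (blue) array, with marker shapes for replicates 1 to 3 and black bars for mean and SD (n = 3). The groups do not overlap for any of the 4 genes, and siControl 3 lies nearest to the siCSRP2 arrays for PLK1, FOXM1 and TOP2A, while the siControl values of NUSAP1 span only 0.14.

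Ordered by size, the differences were TOP2A, PLK1, FOXM1 and NUSAP1, at ranks 85, 119, 140 and 226 from the largest fall among 14884 genes. For comparison, 293 genes (1.97%) had a log2 difference of -1 or lower, and in 16.2% of all genes every siCSRP2 array lay below every siControl array. Since the members were picked for their falls, nothing is read from their places in these counts.

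Within the groups the 4 genes did not behave alike. The genes were chosen for their falls, and whether the spread within groups also entered that choice is not recorded. On siControl 3, PLK1, FOXM1 and TOP2A deviated from their siControl means by -0.52, -0.47 and -0.59, whereas NUSAP1 deviated by -0.05. On siCSRP2 2 the same 3 genes deviated by 0.49, 0.26 and 0.33 from their siCSRP2 means, and NUSAP1 by 0.13. siControl replicates spanned 0.81 for PLK1, 0.85 for FOXM1 and 0.95 for TOP2A, against 0.14 for NUSAP1. The root mean square distance of each gene's centred profile over the 6 arrays from the mean of the other 3 was 0.12 for FOXM1, 0.16 for PLK1, 0.16 for TOP2A and 0.29 for NUSAP1 (log2 units).

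**Figure D3:**
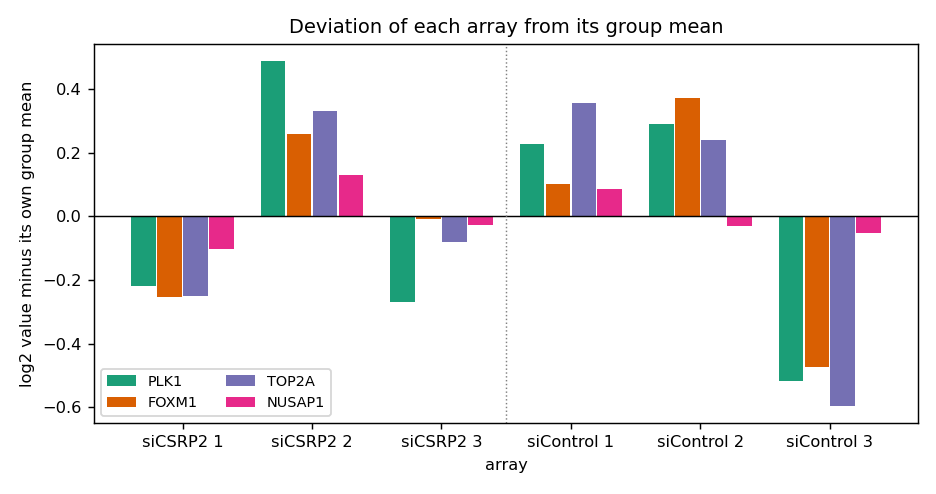
Deviation of each array's log2 value from the mean of its own group (siCSRP2 left, siControl right of the dotted line) for the 4 genes. PLK1, FOXM1 and TOP2A stand 0.47 to 0.59 below their group mean on siControl 3, and NUSAP1 stays within 0.13 of its group means on every array.

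Leaving out siControl 3 moved the differences of PLK1, FOXM1 and TOP2A more than leaving out any other single array did. Without siControl 3 the differences were -1.53 for PLK1, -1.46 for FOXM1, -1.65 for TOP2A and -1.12 for NUSAP1, and over all fits that left 1 array out they ranged from -1.53 to -1.13, from -1.46 to -1.04, from -1.65 to -1.18 and from -1.16 to -1.04. After quantile normalization, which forces the same distribution on all arrays, they were -1.14, -1.18, -1.23 and -0.92 in the same order. The direction was the same for each of the 4 genes under every scaling. Leaving out 1 array could not reverse it, since the groups do not overlap for any of them.

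**Figure D4:**
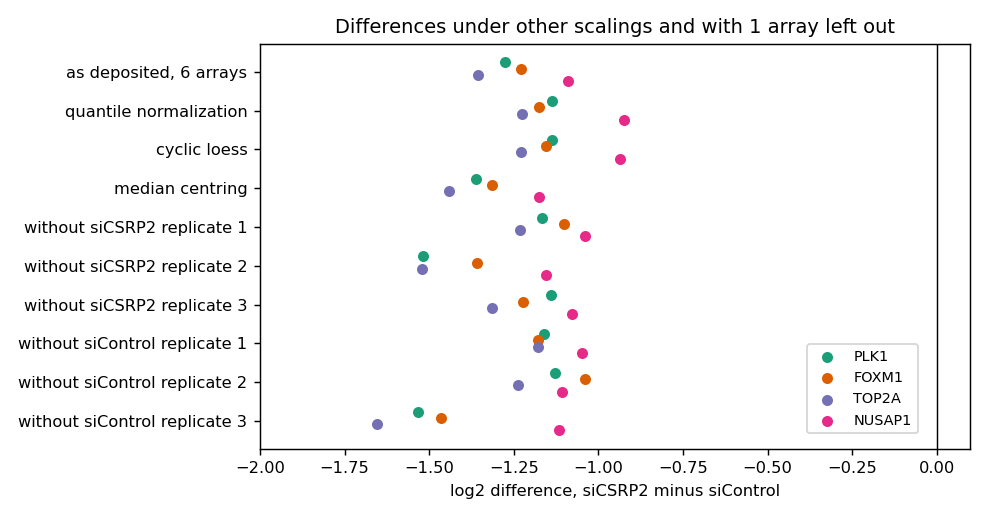
Log2 difference (siCSRP2 minus siControl) of the 4 genes on the deposited values, after quantile normalization, cyclic loess or median centring, and with each array left out in turn. All points lie between -1.65 and -0.92, with the lowest points of PLK1, FOXM1 and TOP2A in the row without siControl replicate 3.

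The genes whose profile over the 6 arrays was nearest to the mean centred profile of the 4 members were, among 14880 others, DDX19B, a helicase of messenger RNA export (root mean square distance 0.05), EFTUD2, a GTPase of the spliceosome (0.07), TEX261 (0.10), PTGFRN (0.11), POGLUT2 (0.12), PTDSS1, a phosphatidylserine synthase (0.12), MOB3A (0.12), RPF1, a ribosome production factor (0.12), CEP89, a centriole protein (0.13) and SOAT1, a cholesterol acyltransferase (0.13). DDX19B, for example, measured 2.56, 3.08 and 2.64 in siCSRP2 and 4.08, 4.14 and 3.58 in siControl, with the same extreme arrays as PLK1. The median distance over all genes was 0.69. None of the nearest 10 was in a list of cell cycle genes or markers used here, and of the nearest 50 genes 3 were (6%), against 137 of all 14880 (0.921%). The members were chosen for their fall, so genes near their profile fall as well, and the lists hold genes already known to be lower. Nothing is therefore read from the difference between these shares.

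Genes that work with the 4 members were then taken from 8 lists, the members left out, of which 93 of 130 genes had a named probe set. Of these, 25 fell (26.9%), CKS2 alone rose and 67 were not called, while among all 14884 genes 6.54% fell and 0.800% rose (limma, adjusted p under 0.05). At an unadjusted p under 0.05 by limma, 51 of the 93 were lower and 2 higher (CKS2 and PLK3), so no further gene of the lists below in which none rose reached it upward. At the same level 2583 of all 14884 genes were lower and 940 higher. The median log2 difference of the 93 was -0.41, beside 0.02 for all genes. Of the 93 differences 77 were below 0, beside 46.9% of those of all genes. The baseline depended on brightness: with the dimmest 50% of genes left out, the median of all remaining genes was -0.15. In that fit, over the brighter 50% of genes only, 1141 genes fell in all, and 34 of the listed genes that remained did. These counts are not to be set against 14884 and 93, and how many listed genes remained is not given here. How far brightness accounts for the lower values of the lists was not tested. After quantile normalization 14 fell and 1 rose, while among all genes 666 fell and 210 rose, against 974 and 119 on the deposited values. In the fit blocked on replicate number 39 fell and 1 rose, while 13.1% of all genes fell and 2.67% rose. The lists hold mitotic genes that an earlier look at these arrays had already shown to be lower, so the count is not independent evidence of the direction.

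Most of these calls were lost in some fits that left 1 array out, and such fits have fewer samples. In those 6 fits the median log2 difference of the 93 genes ranged from -0.55 to -0.35. Of the 26 called genes, all 26 stayed called when siControl 3 was left out and 14 when siCSRP2 1 was. Leaving out siCSRP2 2, siCSRP2 3 or siControl 1 kept 5 of them, and leaving out siControl 2 kept 3. Among the 93 genes, 51 fell without siControl 3, 13 without siCSRP2 1, 5 in each fit without siCSRP2 2, siCSRP2 3 or siControl 1, and 3 without siControl 2. 3 genes passed in all 6 fits, namely RBBP4, BIRC5 and TOP2B, KIF20A was lost only without siControl 2 (adjusted p = 0.0554), and SMC4 without siCSRP2 2 or siControl 2. The other 21 passed in 1 or 2 of the 6 fits. Over all genes, 974 fell with all arrays, 2193 without siControl 3 and 737 without siCSRP2 1. Without siCSRP2 2, siCSRP2 3, siControl 1 and siControl 2 the falls over all genes numbered 182, 259, 149 and 86. The counts over all genes rose and dropped with those of the 93, so the changes were not limited to the listed genes. The counts per list below are to be read beside these. With each gene set against its siControl mean, the 93 genes had medians of -0.49, -0.36 and -0.42 in siCSRP2 and of 0.12, 0.12 and -0.23 in siControl 1, 2 and 3, so siControl 3 again lay between the groups.

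**Figure D5:**
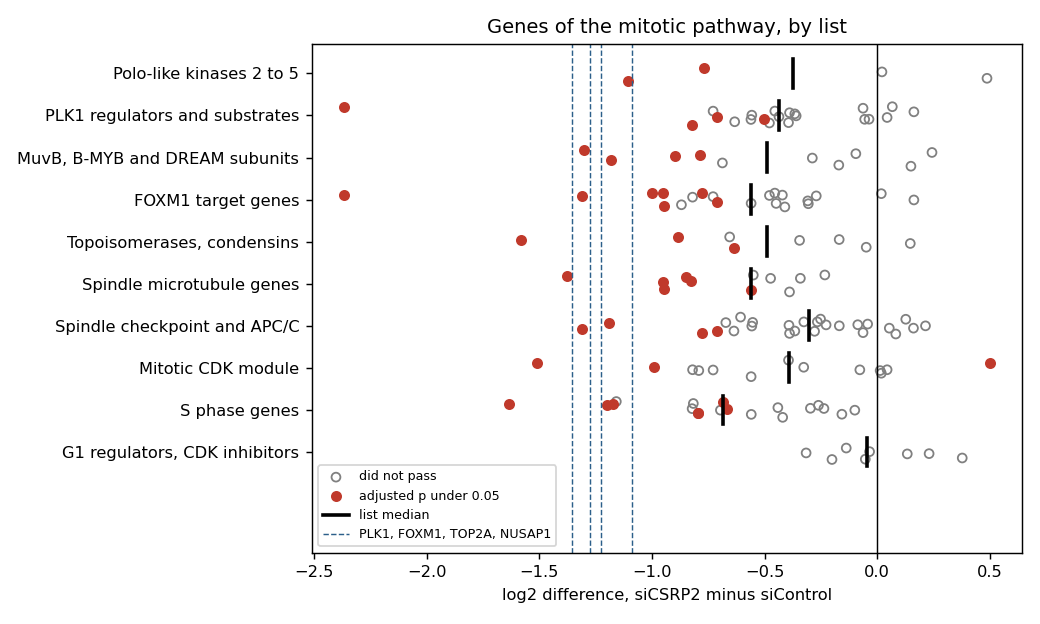
Log2 difference (siCSRP2 minus siControl) of each measured gene in 8 lists of mitotic genes and in the S phase and G1 lists, with filled red points for genes past adjusted p 0.05 (limma), open points for the rest, black bars for list medians and dashed lines for the 4 members. Called genes lie below 0 except CKS2 at 0.50, and no gene of the G1 list is called.

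Of the 4 measured relatives of PLK1, 2 fell and 2 did not pass. PLK2, a kinase induced by stress and growth signals, fell, at 6.82, 5.97 and 5.95 in siCSRP2 and 7.38, 7.28 and 7.40 in siControl (log2 difference -1.11, SE 0.22, limma adjusted p = 0.0236). PLK4, which starts centriole duplication, fell as well, with 2.90, 2.94 and 2.90 in siCSRP2 and 3.73, 3.94 and 3.38 in siControl (-0.77, SE 0.15, adjusted p = 0.021). PLK3 was higher on every siCSRP2 array, at 4.59, 4.44 and 4.57 against 3.73, 4.08 and 4.33 in siControl, but the difference of 0.49 (SE 0.16) did not pass (limma adjusted p = 0.0989). It passed without siControl 3 (0.0154), with array weights (0.027) and with quantile normalization and the replicate block together (0.0235). PLK5 overlapped between the groups (0.02, limma adjusted p = 0.957). Its values, 2.41 to 3.01, lay near the array medians, so its lack of difference tells little. The siCSRP2 values of PLK4 also lay near those medians. The calls of PLK2 and PLK4 were lost without siCSRP2 2, siCSRP2 3, siControl 1 or siControl 2.

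Among regulators and substrates of PLK1, 21 of 26 genes were measured, and 4 fell, none rose and 17 did not pass (median -0.44). KIF20A, a kinesin of the central spindle that docks PLK1 in late mitosis, fell furthest, at 2.99, 3.41 and 2.78 in siCSRP2 against 5.88, 5.80 and 4.59 in siControl (-2.37, SE 0.32, limma adjusted p = 0.00833). CEP55, which directs the final cut between daughter cells, differed by -0.82, the checkpoint kinase BUB1 by -0.71 and the cohesin subunit STAG2 by -0.50 (adjusted p = 0.0489, 0.0469 and 0.0439). With the replicate block 7 fell, adding the phosphatase CDC25B (-0.73), INCENP (-0.63) and FBXO5 (-0.56). The count was 13 without siControl 3, 0 without siControl 2 and 1 without each of the other 4 arrays, and 1 after quantile normalization.

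The complex through which FOXM1 reaches its promoters, with the related DREAM repressor, had 10 of 12 genes measured, of which 4 fell and none rose (median -0.49). RBBP4, a histone-binding subunit of MuvB, measured 4.58, 4.71 and 4.49 in siCSRP2 and 5.81, 5.91 and 5.60 in siControl (-1.18, SE 0.12, limma adjusted p = 0.00316). MYBL2, which encodes B-MYB, differed by -0.90 (adjusted p = 0.0262), RBL1, the pocket protein p107, by -1.30 (0.0354) and the E2F partner TFDP2 by -0.79 (0.0303). The MuvB subunits LIN9, LIN37, LIN52 and LIN54 did not pass, with differences of -0.29, 0.24, 0.15 and -0.09. The count of falls was 1 without siCSRP2 2, siCSRP2 3, siControl 1 or siControl 2.

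Of 27 target genes of FOXM1, 21 were measured, and 7 fell, none rose and 14 did not pass (median -0.56). BIRC5, or survivin, of the chromosomal passenger complex, measured 3.59, 3.81 and 3.55 in siCSRP2 and 4.66, 4.79 and 4.51 in siControl, a difference of -1.0 with an SE of 0.12 (limma adjusted p = 0.00644). KIF20A is in this list too, and KIF2C, a kinesin that takes microtubules apart (-0.95), and CDC20, an activator of the anaphase-promoting complex (-1.31), also fell. With the replicate block 11 fell, adding the cyclins CCNB1 (-0.82) and CCNB2 (-0.56), AURKB (-0.87) and CDC25B. Without siControl 3 the count was 14, without siControl 2 it was 1, without siCSRP2 2 it was 3, and without siCSRP2 1, siCSRP2 3 or siControl 1 it was 2. After quantile normalization 3 fell.

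Beside TOP2A, its paralogue TOP2B, which acts in resting as well as dividing cells, also fell. It measured 4.39, 4.21 and 4.37 in siCSRP2 against 6.06, 6.06 and 5.59 in siControl (-1.58, SE 0.15, 2.99-fold lower, limma adjusted p = 0.00257). No siCSRP2 array came within 1 log2 unit of a siControl array. The condensin subunits SMC4 (-0.88, adjusted p = 0.00933) and SMC2 (-0.64, adjusted p = 0.023) fell, whereas TOP1, TOP3A and TOP3B did not pass, at 0.15, -0.17 and -0.05. MKI67, the Ki-67 proliferation antigen, measured 3.60, 4.24 and 3.93 in siCSRP2 and 4.60, 4.95 and 4.18 in siControl, and did not pass (-0.66, adjusted p = 0.109). It passed with the replicate block (0.0233), without siControl 3 (0.0151) and with array weights (0.0407). In all, 3 of 8 measured genes of this list fell and none rose, with 1 to 4 falls when 1 array was left out, lowest without siCSRP2 2 or siControl 2.

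Of the spindle genes around NUSAP1, 11 of 29 were measured, 6 fell and none rose. All 11 differences were below 0 (median -0.56), beside 46.9% of those of all genes. KIF11, the kinesin that pushes spindle poles apart, measured 4.27, 4.51 and 4.09 in siCSRP2 and 6.12, 5.99 and 4.89 in siControl (-1.38, SE 0.30, limma adjusted p = 0.0305). Its value on siControl 3 lay nearer to the siCSRP2 arrays than to the other controls, unlike that of NUSAP1. The microtubule polymerase CKAP5 differed by -0.85 (adjusted p = 0.0149), KIF18A by -0.83 (0.0204) and KIF2C by -0.95 (0.0285). The count was 9 when siControl 3 was left out, 2 when siCSRP2 1 was and 1 when siCSRP2 2 was. It was 0 when any of the other 3 arrays was left out.

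Of 26 measured genes of the spindle checkpoint and the anaphase-promoting complex, which marks PLK1 and other mitotic proteins for destruction, 4 fell and none rose (15.4%, median -0.30). ANAPC16, a small subunit, differed by -1.19 (limma adjusted p = 0.0306), CDC20 by -1.31 (0.0355), the checkpoint kinase TTK by -0.78 (0.0398) and BUB1 by -0.71. With the replicate block 9 fell, adding ANAPC1, ANAPC4, ANAPC11, CDC16 and FBXO5, and the count was 12 without siControl 3, 1 without siCSRP2 1 and 0 after quantile normalization or without any other array.

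In the CDK1 module, 13 of 15 genes were measured, and 2 fell, 1 rose and 10 did not pass (median -0.39). CDK1 itself measured 3.04, 3.27 and 3.11 in siCSRP2 and 4.33, 4.28 and 3.77 in siControl (-0.99, SE 0.16, limma adjusted p = 0.0135). Cyclin A2, CCNA2, fell with a wide spread, at 3.86, 4.68 and 3.63 in siCSRP2 against 6.07, 5.91 and 4.74 in siControl (-1.51, SE 0.37, adjusted p = 0.0449). CKS2, a small CDK subunit, went the other way, at 7.47, 7.68 and 7.68 in siCSRP2 against 7.17, 7.03 and 7.12 in siControl (0.50, SE 0.11, adjusted p = 0.0336), and kept that direction under every scaling. With the replicate block 6 fell, adding CCNB1, CCNB2, CDC25B and the kinase MASTL (-0.79). 7 fell without siControl 3, 1 without siCSRP2 1 or after quantile normalization, and none without any of the other 4 arrays. The rise of CKS2 was lost without siCSRP2 2, siCSRP2 3, siControl 1 or siControl 2.

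Of 23 listed genes of the preceding S phase 19 were measured, of which 7 fell, none rose (0 also at an unadjusted p under 0.05 by limma) and 12 did not pass, with a median of -0.69. At that unadjusted level 940 of all 14884 genes were higher, so 0 of 19 says little about rises. Among the 7 were thymidylate synthase, TYMS (-1.63, limma adjusted p = 0.0149), the helicase subunit MCM2 (-0.69, 0.0208), cyclin E2, CCNE2 (-0.67, 0.0222) and GINS1 (-0.80, 0.0338). With the replicate block 12 fell, and after quantile normalization 4. The count was 15 without siControl 3, 3 without siCSRP2 1, 1 without siCSRP2 2 and 0 when any of the other 3 arrays was left out. Set against siControl means, the list had a median of -0.52 on siCSRP2 2 and -0.42 on siControl 3.

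Regulators of G1, the phase before the genome is copied, did not pass: of 8 measured genes none fell or rose by limma, also with the replicate block, and at an unadjusted p under 0.05 1 was lower and 0 higher. At that unadjusted level 2583 of all 14884 genes were lower and 940 higher, so counts among 8 genes say little. 1 gene, CDK6, passed as higher in siCSRP2 without siControl 3 (limma adjusted p = 0.0268) and with quantile normalization and the replicate block together (0.0256). With array weights, 1 gene of the list passed as lower. The differences ran from -0.32 to 0.38. Cyclin D1, CCND1, measured 5.96, 5.72 and 5.61 in siCSRP2 and 6.12, 6.12 and 6.0 in siControl (-0.32, SE 0.12, adjusted p = 0.157), CDK6 differed by 0.38, SESN1 by 0.23 and CDK4 by -0.20. Of the CDK inhibitors listed, only CDKN2A had a named probe set (-0.05), and the others were not analysed here.

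The promoter letters of the members were also counted over the other genes. Of 85 measured genes of the 8 mitotic lists that had a promoter window, 37 (43.5%) held the CHR core, beside 11.8% of all 10746 tested genes with a window. Within those lists, however, 10 of 37 genes with the CHR core fell (27%, median -0.47) and 13 of 48 without it (27.1%, median -0.35). Over all tested genes with a window 7.8% of those with the core fell and 7.28% of those without it. With the core and at least 2 CCAAT boxes, as in TOP2A and NUSAP1, 17 of 162 tested genes fell (10.5%), beside 7.34% of all with a window, and within the mitotic lists 3 of 14 did (21.4%), beside 23 of 85 (27.1%). The promoter of CKS2, which rose, held 1 CHR core and 3 CCAAT boxes, and that of TOP2B, which fell, held neither.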

How the data were processed

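Total RNA of 6 samples (3 siCSRP2, 3 siControl) was hybridised to Affymetrix HuGene 2.0 arrays, per the labels. Each probe set has 1 deposited value per array, taken as log2 from its range (1.26 to 13.4). The submitters' processing notes name Partek. The sources used here do not give the background correction, normalization or build. Quartiles of the deposited values differ between arrays. No detection calls were used, so depth is known only as the number of arrays.

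Of 53617 probe sets, 16098 had 1 gene symbol in the platform table, none had several, and 37519 were unnamed. All 16098 gene identifiers matched RefSeq (GRCh38.p14) for current symbols. Each gene was represented by its brightest probe set, by the mean of all 6 arrays (14884 genes, no filter). Groups were taken from the sample titles, and all value columns were mapped. The comparison used limma 3.58.1 under R 4.3.3 (lmFit, eBayes, group only), adjusted with Benjamini-Hochberg over all genes at 0.05, two-sided, with a replicate block, other scalings, filters on dim genes, array weights, a trend and left-out arrays as alternatives. The fit was tested on simulated data. Members, lists and tests were chosen with earlier results of these data known. Named are the members, the paralogues, up to 4 genes per list with the smallest adjusted p and every list gene that rose, and the 10 nearest profiles. Genes said to be added by the replicate block, the other genes given as not passing in the MuvB and topoisomerase lists, CDKN2A, and the markers EPCAM, GATA3 and ESRP1 were chosen after their values were seen.

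Same-numbered arrays deviated from their group means together across genes (correlations of 0.305, 0.187 and 0.321), while arrays of unlike number had correlations from -0.256 to 0.052. The labels tie the numbers to no plate or day. They were treated as pairs only in the paired differences and the replicate block, not in the reported fit. This pairing rests on the same values to which the block was fitted. Promoter windows came from the RefSeq table, 1 per gene.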

Additional observations from a re-analysis of the deposited data

How the results depend on the processing

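The differences of PLK1, FOXM1 and TOP2A moved by less than the smaller of the 2 group SDs under every scaling and with any 1 array left out. That of NUSAP1, with its small SD, moved to -0.92 after quantile normalization (also with the replicate block added, an alternative chosen after seeing the data), -0.94 after cyclic loess and -1.18 after median centring. With 1 array left out the differences ranged from -1.53 to -1.13 (PLK1), -1.46 to -1.04 (FOXM1), -1.65 to -1.18 (TOP2A) and -1.16 to -1.04 (NUSAP1). The replicate block leaves a difference of means unchanged. It kept all 26 calls among the mitotic genes and added 14 falls, of which those of RBL2 and KIF15 are not named beside their lists.

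Over all genes, falls numbered 974 as reported, 1950 with the replicate block, 1486 with quantile normalization and the block, 1471 after median centring and 2327 with array weights, and from 86 to 2193 with 1 array left out. Rises numbered 119 as reported, 398 with the block, 524 with quantile normalization and the block, 210 after quantile normalization, 197 after cyclic loess and 597 with array weights, and from 5 to 427 with 1 array left out. Of the 93 mitotic genes, 25 fell as reported, 39 with the block, 14 after quantile normalization, 16 after cyclic loess and 51 with array weights, and from 3 to 51 with 1 array left out. The rise of CKS2 was joined by 1 more with array weights (2 in all) and with quantile normalization and the block (2), and was lost with an intensity trend and robust priors (0). With 1 array left out the rises numbered 0 to 2. Fits that leave out an array have fewer samples; other causes of these changes were not tested. No background value was at hand, so signal over background is unknown and limits dim probe sets such as FOXM1 in siCSRP2.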
